A study of Mus musculus with 6 samples.

Results

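Transcripts of the mouse zinc finger protein genes named Zfp or Zscan were followed from meiosis into early spermiogenesis. They were all contigs whose gene symbol in the deposited tail table starts with Zfp or Zscan followed by a digit, which gave 157 transcripts of 108 genes. Of these, 103 transcripts of 77 genes had 30 or more reads over the 6 samples, out of 8619 annotated transcripts with that many reads. The cells were pachytene/diplotene (P/D) spermatocytes and round spermatids (RS) from the testes of adult wild-type C57BL/6J/B6 males, sorted by Hoechst and PI staining. Each cell type had 3 samples, each made of mRNA pooled from 3 mice. By the study's account, each mouse supplied both spermatocytes and spermatids, so the P/D and RS pools did not come from separate animals. Whether equal replicate numbers mark the same mice is not stated, so the main fits were unpaired and a replicate block was an alternative. Polyadenylated RNA was sequenced directly on nanopores, so that each read carried its own poly(A) tail length, and the number of reads of a transcript gave its accumulation. All P/D samples were multiplexed in 1 nanopore library and all RS samples in a second one, so cell type and library cannot be told apart. By the study's account, the mRNA within a sequencing experiment was extracted in parallel. The study describes its P/D gate as less pure than its RS gate. In such sorted bulk samples, fewer cells that hold a transcript and less of it per cell cannot be told apart either.

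Most proteins named Zfp or Zscan carry C2H2 zinc fingers, in which a pair of cysteines and a pair of histidines hold a zinc ion and fold a short loop that reads DNA or, in some proteins, binds RNA. Many also have a KRAB domain, which recruits the co-repressor TRIM28 and is known for silencing retrotransposons and guarding imprints. Zscan proteins have a SCAN domain, through which zinc finger proteins pair. The name also covers proteins of quite other kinds, such as the CCCH proteins that drive mRNA decay, the ribosome-collision ligase ZFP598 and the SUMO ligase ZFP451. In male germ cells, transcription and translation are uncoupled after meiosis, and many mRNAs are stored before use, for which the poly(A) tail is a known control point.

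Of the 76 genes with an annotated coding transcript, 74 encoded at least 1 sequence of the form Cys, 2 to 4 residues, Cys, 12 residues, His, 3 to 5 residues, His. The median was 8 fingers per gene and the most was 27. Of the 76 genes, 62 had 3 or more fingers, against 22 of 5685 other coding genes (0.387%). To show what these genes share, the bases coding the first finger are printed for 3 transcripts that rose in RS (Zfp37, Zfp39, Zfp105), 1 that fell (Zfp956), and 2 whose tails were among the shortest in RS (Zscan2, Zfp646). They were read 5′ to 3′ on the coding strand of the GENCODE transcripts (GRCm38), with the codons of the cysteines and histidines in capitals.
Zfp37 (chr4:62192118-62192180, minus strand): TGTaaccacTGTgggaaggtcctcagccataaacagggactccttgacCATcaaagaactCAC
Zfp39 (chr11:58890975-58891037, minus strand): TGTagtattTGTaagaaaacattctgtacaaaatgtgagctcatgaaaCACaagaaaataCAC
Zfp105 (chr9:122929926-122929988, plus strand): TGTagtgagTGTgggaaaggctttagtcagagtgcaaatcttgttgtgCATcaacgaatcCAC
Zfp956 (chr6:47963687-47963749, plus strand): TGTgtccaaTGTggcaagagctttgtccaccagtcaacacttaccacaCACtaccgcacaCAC
Zscan2 (chr7:80875202-80875264, plus strand): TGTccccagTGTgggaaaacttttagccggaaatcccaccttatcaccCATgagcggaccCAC
Zfp646 (chr7:127878680-127878745, plus strand): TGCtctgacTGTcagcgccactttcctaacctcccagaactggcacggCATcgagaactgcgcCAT
The first 5 fingers have the same spacing, 63 bases long, whereas that of Zfp646 is 66 bases long. The whole proteins repeat the unit to different extents: these transcripts encode 12, 12, 11, 6, 14 and 27 fingers in the order printed.

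The samples held 244004 to 474688 counts each, and the 157 transcripts took 0.466% to 0.555% of them. They were therefore thinly covered: 59 of the 103 had fewer than 5 reads in at least 1 sample, and 9 had 20 or more reads in every sample. The 10 RS markers held 0.0416% to 0.0545% of counts in P/D samples and 0.318% to 0.351% in RS samples, and the 10 markers of later spermatids held 0.192% to 0.272% and 2.52% to 3.00%. The 10 P/D markers held 0.499% to 0.609% in P/D samples and 0.429% to 0.489% in RS samples. Of the somatic markers, 2 of 6 Sertoli genes, 3 of 6 Leydig genes, 0 of 5 macrophage and blood genes and 0 of 4 peritubular and endothelial genes had a contig, and no such list had more than 7 reads in any sample.

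The first question was whether the tails of these transcripts were longer in RS. They were. Of all their reads, 32.9%, 31.2% and 30.5% had tails of 120 to 210 nt in P/D samples 1 to 3, against 68.3%, 64.5% and 66.9% in RS samples 1 to 3. The P/D and RS samples did not overlap, and the group means were 31.6% ± 1.25 and 66.6% ± 1.93 (SD, n = 3). The median read had a tail of 94.5 to 100.6 nt in P/D samples and 159.0 to 164.5 nt in RS samples. The fullest 10-nt bin ran from 50 to 60 nt in P/D, holding 9.02% of reads, and from 160 to 170 nt in RS, holding 10.6%. All annotated transcripts together went from 29.6% ± 0.943 to 67.4% ± 0.996 in the 120 to 210 nt class, a gain of 37.9 percentage points beside 35.0 for the Zfp and Zscan reads.

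**Figure D1:**
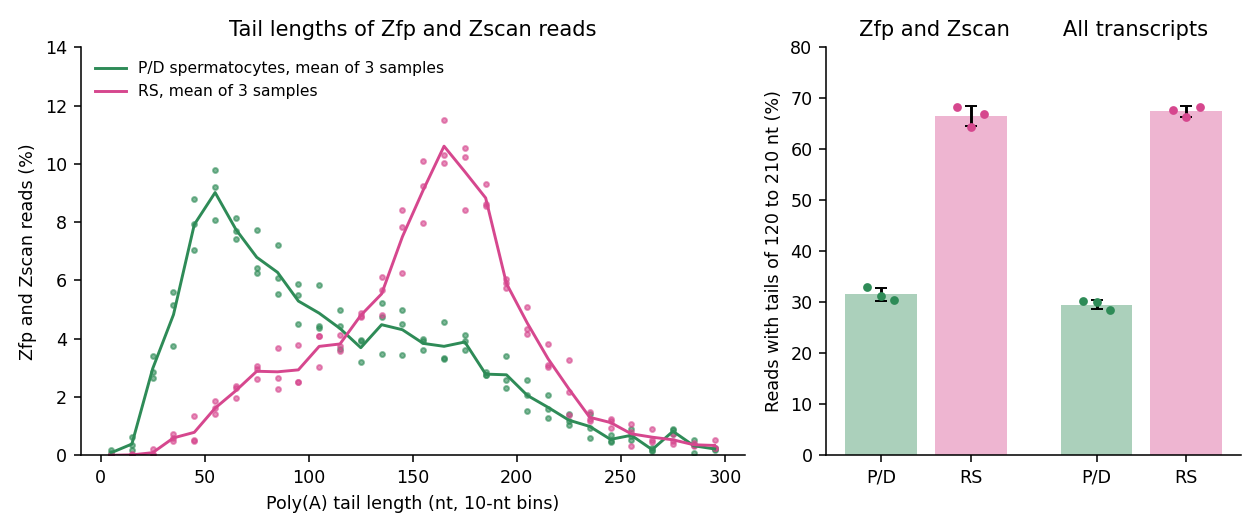
Left, percentage of Zfp and Zscan reads (y axis) in each 10-nt bin of tail length (x axis), with a point for each sample and a line for the mean of the 3 P/D (green) or 3 RS (pink) samples. Right, percentage of reads with tails of 120 to 210 nt in Zfp and Zscan transcripts and in all annotated transcripts, with bars for means, error bars for SD and points for samples. The P/D reads peak at 50 to 60 nt and the RS reads at 160 to 170 nt, and the share of long tails is 31.6% in P/D and 66.6% in RS.

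Transcript by transcript, the mean tail in RS was above that in P/D spermatocytes in 93 of 103. In the fit with a floor of 30 reads described below, the difference was above 0 in 92 of 100 of them and in 7030 of all 8364 transcripts. The median over the 103 transcripts was 110.8 nt in P/D and 157.7 nt in RS, beside 116.1 and 159.4 nt over all transcripts with 30 reads. Mean tails per sample were compared with limma, for transcripts that reached 10 reads in 2 or more samples of either cell type. Of the 67 that could be tested, 38 had longer tails in RS at an adjusted p under 0.05, and in all 6990 transcripts of the fit 54.2% did. None of the 67 had shorter tails, where 1.69% of all transcripts did. At an unadjusted limma p under 0.05, 1 of the 67 (Zfp72, with 2 P/D reads) had shorter tails, and the test named in the study's methods, run on the same means with adjustment, also called 0. The median difference was 38.3 nt, beside 37.4 nt in all transcripts. That filter can admit a transcript through the cell type in which it is abundant. The fit was repeated with 30 reads over the 6 samples as the floor, which can do so as well. This second fit called 49 of 100 longer and 0 shorter, against 49.9% and 1.48% of 8364 transcripts. Of the 103, 26 had 10 reads in 2 samples of both cell types, and a fit with that stricter filter is among the alternatives given at the end. The remaining 3 of the 103 (Zfp558, Zfp759 and 1 Zfp37 transcript) had a read in only 1 P/D sample. In 95 transcripts all 6 samples gave a mean, and the lowest RS value exceeded the highest P/D value in 53 of them, against 60.3% of all such transcripts, while the reverse order held in 0, against 2.63%.

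**Figure D2:**
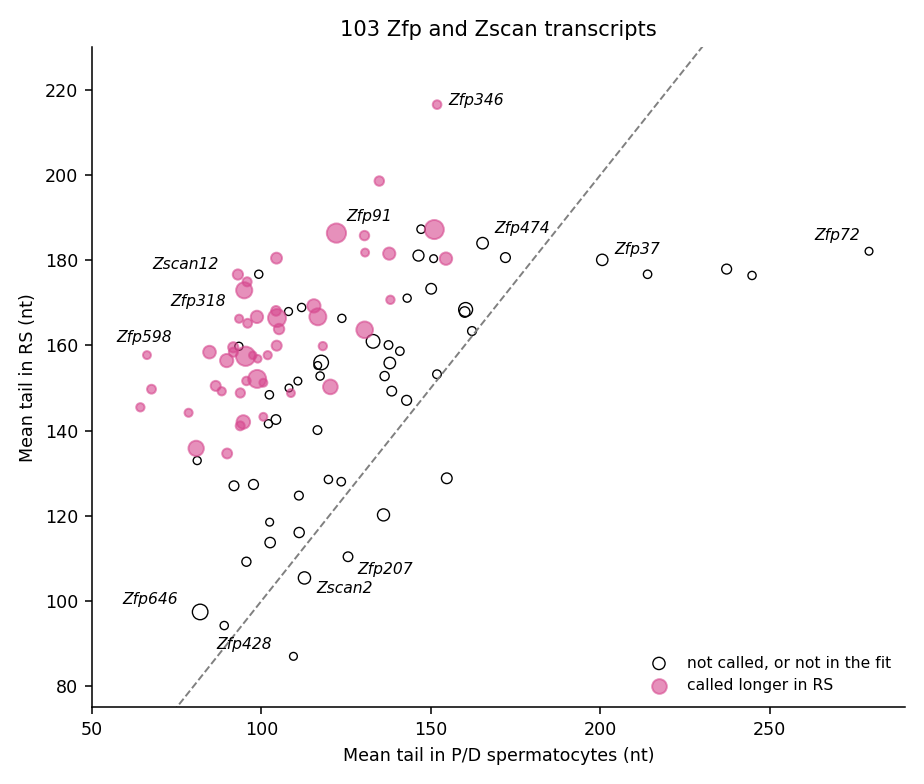
Mean tail length in P/D spermatocytes (x axis, nt) and in RS (y axis, nt), each the mean over the samples with a read, for the 103 Zfp and Zscan transcripts. Point area grows with the number of reads, filled points were called longer in RS by limma in the fit with a floor of 30 reads, and the dashed line marks equal tails. Of the points, 93 lie above the line, and those right of 200 nt on the x axis rest on 11 P/D reads or fewer.

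In the fit with 67 members, the largest called increase belonged to Zscan12, a SCAN zinc finger gene, whose mean tails were 83.6, 91.0 and 104.6 nt in P/D and 156.7, 174.9 and 198.4 nt in RS. The difference was 83.6 ± 12.1 nt (SE, limma adjusted p = 0.00175). Zfp318, first described as a testis zinc finger gene and known for its part in IgD expression in B cells, had means of 109.3, 94.2 and 81.2 nt in P/D and 180.4, 165.9 and 172.5 nt in RS. Its difference was 78.0 ± 8.97 nt (limma adjusted p = 0.000785), on 161 P/D and 84 RS reads, and the share of its reads in the 120 to 210 nt class was 16.1% in P/D and 82.1% in RS. In both transcripts the groups were far apart. Zfp639 differed by 79.2 ± 11.6 nt, Zfp560 by 76.0 ± 7.56 nt and Zfp511 by 73.8 ± 6.48 nt, each without overlap of the groups (limma adjusted p = 0.00185, 0.000567 and 0.000490). The Zfp560 transcript is 608 bases long, with 39 coding residues and none of the 15 fingers of its gene. A Zscan21 transcript (ENSMUST00000080732) differed by 82.2 ± 15.7 nt, with 10 P/D reads behind its P/D value, and Zfp689 and Zfp993 differed by 69.3 ± 18.1 and 68.0 ± 6.80 nt.

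The transcripts with most reads had longer tails in RS as well. Zfp110, whose protein binds the p75 neurotrophin receptor, had the most reads (362). Its tails were 88.8, 91.6 and 105.5 nt in P/D and 156.4, 159.0 and 156.9 nt in RS, a difference of 62.1 ± 6.59 nt (limma adjusted p = 0.000641). Zfp91, which encodes a ubiquitin ligase, had tails of 125.3, 121.6 and 119.4 nt in P/D and 180.8, 184.8 and 193.5 nt in RS, a difference of 64.2 ± 6.06 nt (limma adjusted p = 0.000513). Neither transcript passed the test for accumulation (log2 fold change -0.15 and -0.21). Among the other 6 of the 8 transcripts with most reads, all called longer, the differences ran from 33.2 nt in Zfp991 to 78.0 nt in Zfp318. These 8 were picked by read depth, which eases a call, and 54.2% of all 6990 transcripts of the fit were called longer. The 3 Zfp423 transcripts, from a gene with 27 fingers whose protein partners EBF factors, differed by 55.4, 63.8 and 67.9 nt, all called.

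Some transcripts had short mean tails in RS. Of the 103, 94 had a mean tail of 120 nt or more in RS and 9 did not. The lower quartile of the RS means was 144.8 nt in the 103, beside 140.2 nt over all transcripts with 30 reads. Zfp646, with 223 reads, had tails of 77.2, 77.1 and 91.4 nt in P/D and 92.5, 91.0 and 108.7 nt in RS, so its groups overlapped. The difference of 15.5 ± 7.85 nt did not pass (limma adjusted p = 0.143), and 18.7% of its P/D reads and 21.6% of its RS reads were in the 120 to 210 nt class. Zscan2, whose product ZFP29 is known from spermatids, had tails of 129.9, 104.6 and 103.6 nt in P/D and 112.5, 96.8 and 106.8 nt in RS, a difference of -7.30 ± 9.38 nt (limma adjusted p = 0.542). These groups overlapped as well. Both Zfp428 transcripts had the shortest RS means, 87.0 and 94.2 nt, on 20 and 23 RS reads. Zfp207, Zfp830, a Zfp644 transcript, Zfp248 and Zfp54 had RS means of 110.4, 113.7, 116.1, 109.2 and 118.5 nt, none of them called. A transcript that was not called is not thereby shown to have equal tails in both cell types.

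**Figure D3:**
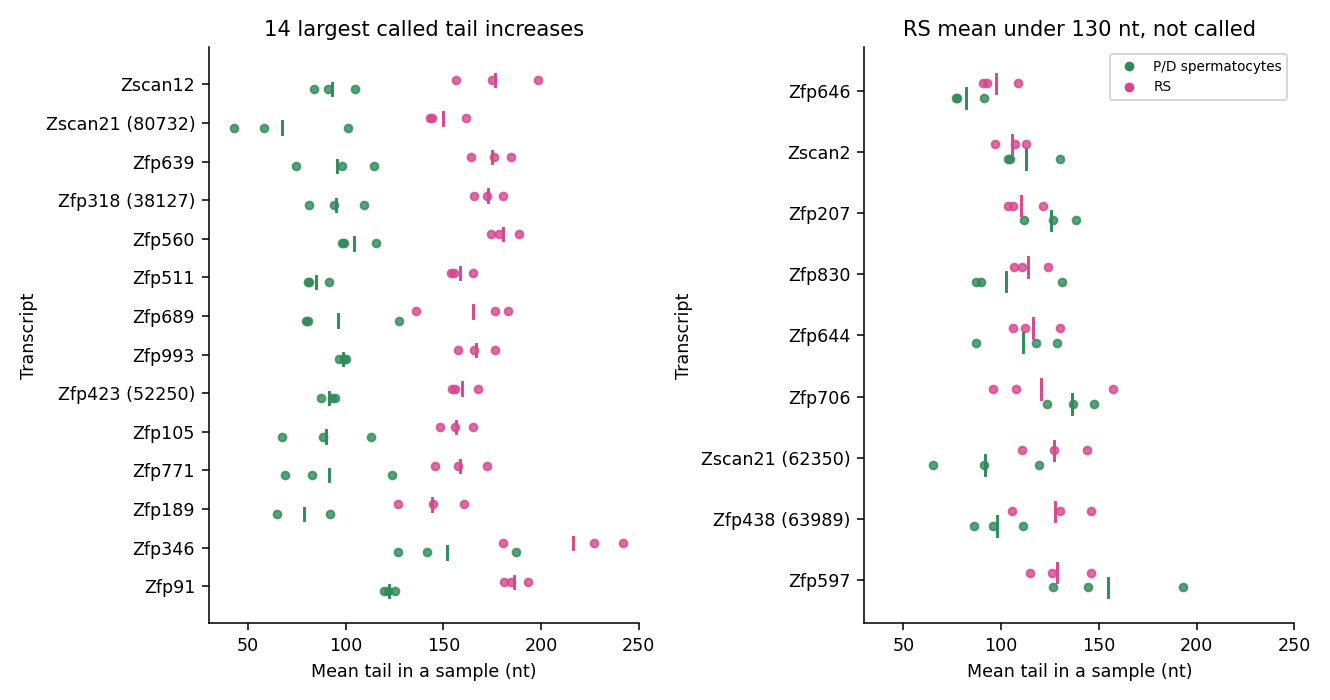
Mean tail (x axis, nt) of a transcript in each of the 3 P/D (green) and 3 RS (pink) samples, with a tick at the group mean. Left, the 14 largest tail increases called by limma. Right, transcripts of the same fit that were not called, had a mean under 130 nt in RS and had 60 or more reads. The last digits of the transcript identifier are given where a gene has several. Groups stand apart on the left except in Zfp346, and Zfp189 has a value in 2 P/D samples, whereas all 9 overlap on the right.

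The second question was which transcripts accumulated differently, tested with edgeR on the counts. Of 57 transcripts that passed edgeR's filter on low counts, 19 were higher in RS and 14 were lower, where 32.7% and 30.6% of all 6005 transcripts were called. The median log2 fold change was 0.27, beside -0.02 in all transcripts. With the floor of 30 reads, which kept all 103, 30 were higher and 19 lower, against 32.2% and 25.1% of 8619 transcripts. Levels below are CPM, counts scaled to a common library size with TMM factors, as mean ± SD over 3 samples.

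The highest increases were of transcripts almost absent from P/D spermatocytes. Zfp474, a gene described as testis-specific and with no finger of the searched form, had 2 transcripts. The P/D samples gave 4, 3 and 2 reads of the better covered one, against 32, 35 and 32 from RS, and 1, 3 and 0 of the other, against 15, 24 and 28 from RS. Their levels went from 11.3 ± 4.66 to 88.9 ± 14.2 CPM (log2 fold change 2.99 ± 0.40 SE) and from 4.63 ± 4.90 to 59.3 ± 17.3 CPM (3.54 ± 0.53), with edgeR adjusted p = 2.31e-08 and 2.67e-07. The groups did not overlap. Zfp330, which encodes a nucleolar protein with other cysteine-rich motifs than C2H2 fingers, had 2, 2 and 2 reads in P/D and 26, 37 and 17 in RS (log2 fold change 3.23 ± 0.46, edgeR adjusted p = 7.24e-08). Zfp37, a KRAB zinc finger gene known from testis, had 3, 6 and 2 reads in P/D and 23, 34 and 36 in RS for its most read transcript, going from 13.2 ± 6.00 to 82.3 ± 16.8 CPM (log2 fold change 2.62 ± 0.39, edgeR adjusted p = 2.50e-07). Its second transcript rose by 3.17 ± 0.49.

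The SUMO ligase gene Zfp451 had 4 contigs, and the 2 at the floor of 30 reads both rose. The coding one had 10, 21 and 15 reads in P/D and 62, 94 and 71 in RS, or 55.6 ± 13.6 and 199 ± 1.46 CPM (log2 fold change 1.87 ± 0.23, edgeR adjusted p = 5.36e-09). The other, annotated as a target of nonsense-mediated decay, rose by 2.22 ± 0.32. Zfp39 and Zfp105, both known from spermatogenic cells, rose as well (edgeR adjusted p = 1.41e-05 and 0.000125). Their levels went from 91.6 ± 17.9 to 200 ± 54.0 CPM and from 45.2 ± 11.4 to 103 ± 4.50 CPM without overlap of the groups. Among the other risers were transcripts that do not encode the protein. A retained-intron transcript of Zfp974 had 5, 4 and 3 reads in P/D and 46, 52 and 63 in RS (3.29 ± 0.35), and a processed transcript of Zfp644, whose protein joins the histone methyltransferases G9a and GLP, had 2, 2 and 1 reads and 21, 22 and 29 reads (3.34 ± 0.49). Smaller increases were called for Zfp949, Zfp597, Zfp607b, Zfp830, Zfp654, Zfp646 and 2 Zscan21 transcripts, from 0.56 to 1.61 on the log2 scale. That of Zscan21 ENSMUST00000110960 was lost when the replicate number was a block in the edgeR fit (adjusted p = 0.0344 without and 0.0562 with the block), and both this call and that of Zfp830 were lost in 6 of 11 alternatives.

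The steepest fall was that of Zfp346, which encodes a protein that binds double-stranded RNA. It had 9, 18 and 17 reads in P/D and 1, 2 and 1 in RS, going from 53.5 ± 14.4 to 3.42 ± 0.726 CPM (log2 fold change -3.76 ± 0.50, edgeR adjusted p = 2.07e-08). Zfp207, which encodes the kinetochore and spindle protein BuGZ, had 18, 15 and 18 reads in P/D and 4, 5 and 5 in RS (log2 fold change -2.27 ± 0.38, edgeR adjusted p = 2.01e-06). Zfp956, one of the more abundant fallers, had 51, 54 and 62 reads in P/D and 16, 25 and 10 in RS, or 207 ± 30.1 and 44.1 ± 13.7 CPM (log2 fold change -2.15 ± 0.24, edgeR adjusted p = 5.90e-10). In these 3 transcripts no RS sample reached any P/D sample. Zfp771, Zfp787, Zfp41, Zfp367, a second Zfp956 transcript annotated for nonsense-mediated decay, Zfp800 and Zfp248 fell by 1.45 to 2.15 on the log2 scale. The Zfp787 transcript is 576 bases long, with 30 coding residues and none of the 7 fingers of its gene. Zfp318 fell by 1.37 ± 0.23 and Zfp35, a gene known from pachytene spermatocytes, by 0.94 ± 0.22, from 221 ± 62.0 to 112 ± 35.3 CPM. Zfp639 and Zfp560 completed the 14 that were called, with log2 fold changes of -1.15 ± 0.38 and -0.71 ± 0.31. The call of Zfp560 did not hold with the floor of 30 reads (edgeR adjusted p = 0.0544) and was lost in 8 of 12 alternatives.

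**Figure D4:**
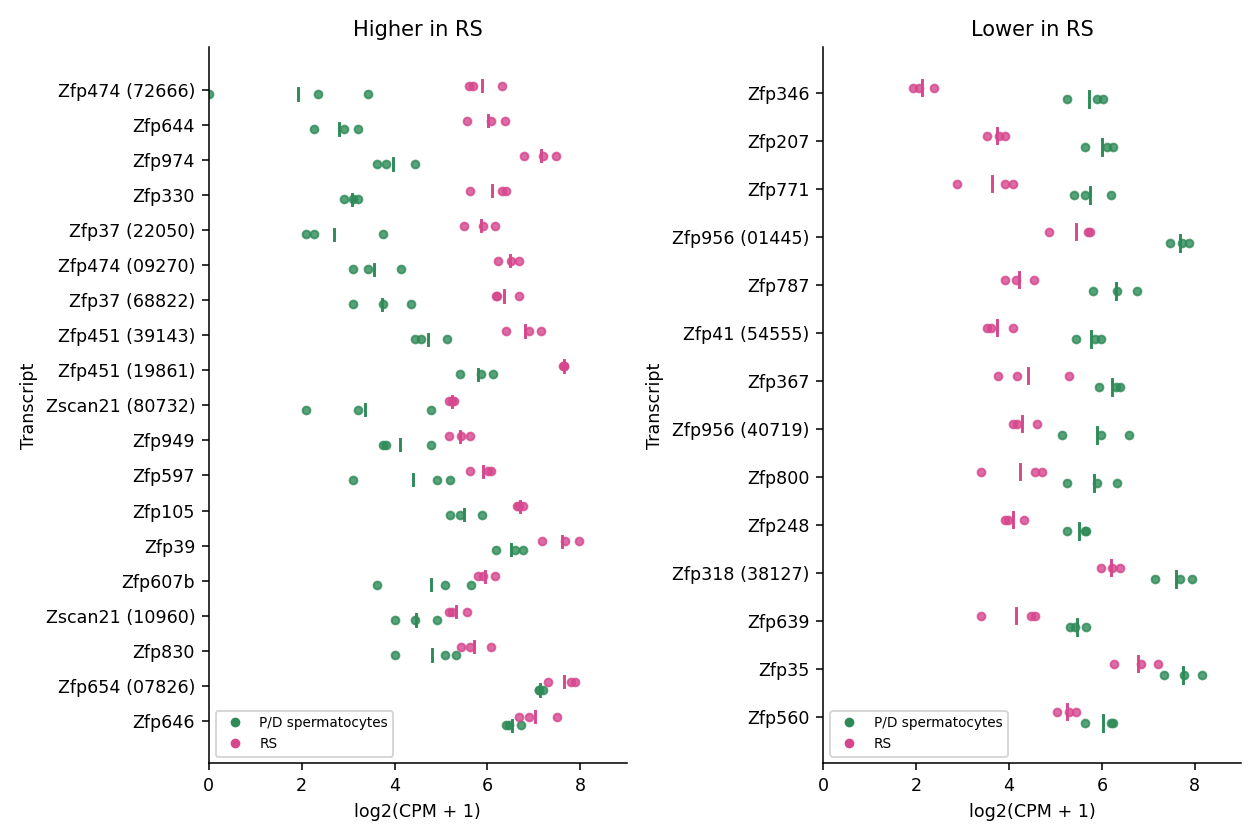
Accumulation, as log2(CPM + 1) on the x axis, of the 19 transcripts called higher in RS (left) and the 14 called lower (right) by edgeR, in each of the 3 P/D (green) and 3 RS (pink) samples, with a tick at the group mean of the plotted values. The last digits of the transcript identifier are given where a gene has several. The upper rows of each panel show the groups far apart, by 3.54 (Zfp474) and -3.76 (Zfp346) in fitted log2 fold change.

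Set side by side, the changes in accumulation and in tail length of the 57 transcripts tested for both had a Pearson r of -0.333 and a Spearman rho of -0.280. These are across transcripts that come from the same reads and libraries, so they are a description only. Over all 5916 transcripts tested for both they were -0.287 and -0.260. Of the 19 transcripts that were higher in RS, 7 had longer tails, with a median difference of 23.2 nt, and a median tail of 130.4 nt in P/D. Of the 14 that were lower, 9 had longer tails, with a median difference of 56.9 nt from a P/D median of 104.5 nt. Of the 24 that were neither, 17 had longer tails. In all transcripts the corresponding shares were 36.6%, 63.3% and 71.2%. The transcripts that rose most passed the read filter through RS alone and had few P/D reads (9 and 4 for Zfp474, 11 and 5 for Zfp37, 6 for Zfp330, 5 for Zfp644 and 12 for Zfp974). The groups thus had unlike chances of a tail call, and their counts are given side by side as a description only.

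Both Zfp474 transcripts had tails of 156.3 nt or more in every P/D sample with a read, from 1 to 4 reads a sample. Their RS tails were 173.7 to 190.3 nt, and neither difference was called (18.7 ± 6.75 and -59.4 ± 38.5 nt, limma adjusted p = 0.0551 and 0.249). Zfp37 had P/D means of 263.3, 168.6 and 169.9 nt on 3, 6 and 2 reads, and RS means of 177.0, 179.1 and 184.2 nt, which overlapped. Zfp330 and Zfp974 were not called either, with P/D means of 150.1 and 160.3 nt and RS means of 173.3 and 168.4 nt. Zfp105, Zfp39 and Zfp451, by contrast, both rose and gained tail. Zfp105 went from 67.6, 113.1 and 88.4 nt to 155.8, 148.2 and 165.4 nt (difference 66.7 ± 12.5 nt, limma adjusted p = 0.00487), and Zfp39 and the coding Zfp451 transcript gained 53.4 ± 8.53 and 50.1 ± 8.47 nt. Among the fallers, Zfp318, Zfp639, Zfp560, Zfp771, Zfp35, Zfp787, both Zfp956 transcripts and Zfp346 had longer tails in RS. The Zfp346 value rests on 4 RS reads, its groups overlapped, and its tail call was lost in 7 of 14 alternatives (medians, read weights, the methods' test and 4 of those that left out a sample). The tail call of the second Zfp956 transcript was lost in 5 of 15. Of the 14, only Zfp207 had a shorter mean tail in RS, at 111.7, 138.4 and 126.6 nt in P/D and 106.2, 103.6 and 121.3 nt in RS (difference -15.2 ± 9.20 nt, limma adjusted p = 0.210).

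**Figure D5:**
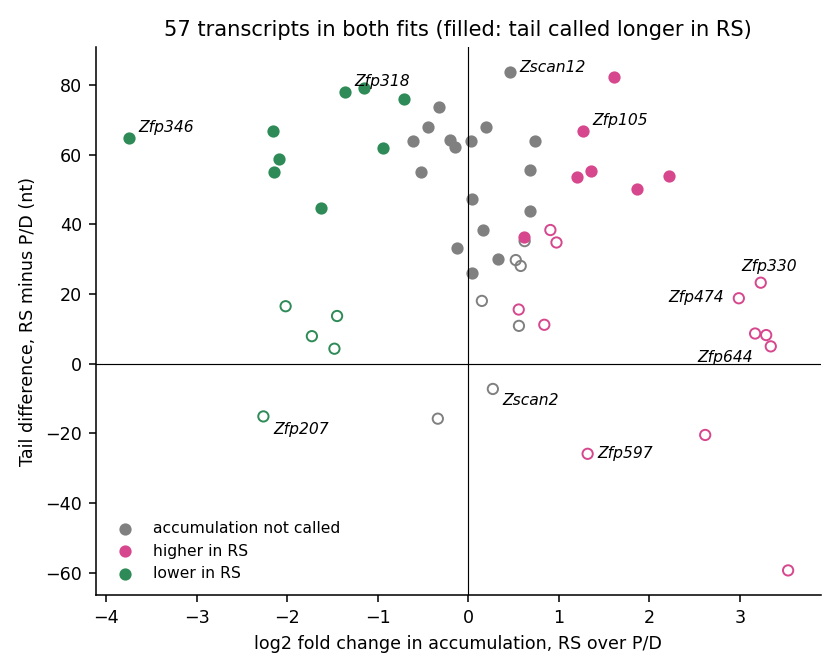
Fitted log2 fold change in accumulation (x axis, RS over P/D, edgeR) and fitted tail difference (y axis, RS minus P/D in nt, limma) of the 57 transcripts in both fits. Pink points were called higher in RS, green points lower and grey points neither, and filled points had tails called longer. The transcripts with a log2 fold change near 3 have open points near or below 25 nt, while 9 of the 14 green points are filled.

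By known role, the genes acting on RNA, the ribosome, ubiquitin, SUMO or the spindle comprised 16 named genes, of which 11 had a transcript with 30 reads. Of their 13 transcripts in the fits with the floor of 30 reads, 8 had longer tails, 4 were higher and 3 lower in RS, with medians of 50.1 nt and -0.42. In the same fits 49.9% of all transcripts were longer, 32.2% higher and 25.1% lower, and the medians were 37.1 nt and 0.06. The ribosome-collision ligase gene Zfp598 had 12, 8 and 6 reads in P/D and 2, 3 and 4 in RS (log2 fold change -1.91, edgeR adjusted p = 0.00195). Its tails were 73.1, 58.1 and 67.4 nt in P/D and 143.9, 129.7 and 199.6 nt in RS (limma adjusted p = 0.00767). Zfp593, whose product is known from export of the large ribosomal subunit, gained 55.1 ± 13.1 nt with no call for accumulation. Both transcripts of Zfp385a, an RNA-binding protein gene, had longer tails (RS means 151.2 and 143.2 nt, P/D means 100.6 and 100.6 nt). Zfp622, another ribosome assembly factor, had P/D and RS means of 116.6 and 155.3 nt, and Zfp706 of 136.0 and 120.2 nt, and neither was called.

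Of 11 genes known for roles or expression in male germ cells, 8 had transcripts with 30 reads, 16 in all. By the same fits, 10 were higher in RS and 1 was lower, the median log2 fold change being 1.21, and 6 of 15 had longer tails, beside 32.2%, 25.1% and 49.9% of all transcripts. Of the 16, 5 are transcripts of Zscan21 and 3 of Zfp37, so they are not independent of each other. The list was drawn up with earlier results of these data known and is no independent evidence of a direction. Zfp541, whose protein works with KCTD19 and the deacetylases HDAC1 and HDAC2 in pachytene chromatin, did not change in accumulation by the test (log2 fold changes 0.16 and 0.15). Its most read transcript had tails of 144.6, 104.4 and 103.9 nt in P/D and 157.2, 145.2 and 165.5 nt in RS, a difference of 38.4 ± 12.9 nt whose limma adjusted p was 0.0451, 0.0513 with the floor of 30 reads and 0.0548 with the replicate block. The partner gene Kctd19 had tails longer by 39.4 ± 8.14 and 39.5 ± 6.48 nt in its 2 transcripts, with limma adjusted p = 0.00727 and 0.00288. Its second transcript had a log2 fold change of -0.37 ± 0.16, a call that did not hold with the floor of 30 reads (edgeR adjusted p = 0.0486 and 0.0606). Hdac1 (15.7 ± 8.45 nt), Dnttip1 (11.3 ± 14.5 nt) and Hdac2 (-28.1 nt in the fit with the floor of 30 reads, limma adjusted p = 0.221) were not called. The Zfp35 tails went from 113.8, 97.7 and 102.2 nt to 163.9, 162.0 and 173.4 nt, a difference of 61.8 ± 6.97 nt.

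The SCAN genes had 8 transcripts with 30 reads from 4 of 5 genes, of which 4 had longer tails, 3 were higher and 0 lower, with medians of 47.4 nt and 0.55, beside the same 49.9%, 32.2% and 25.1% of all transcripts. All 5 transcripts of Zscan21 had a longer mean tail in RS, by 35.1 to 82.2 nt. Of the 4 CCCH genes only Zfp36l1 had a contig in the tables used here, with 0, 0 and 0 reads in P/D and 2, 8 and 6 in RS, below the floor. Of 9 KRAB genes known for retrotransposon or imprint control, Zfp57, Zfp445 and Zfp819 had a contig, with 18, 27 and 27 reads, and none reached the floor. The Zfp57 reads were all from RS samples (3, 6 and 9). Of the co-repressor machinery that KRAB proteins recruit, 4 of 11 genes had a transcript with 30 reads. In the fit with that floor, 3 of these 4 transcripts were lower in RS and 0 higher, beside 25.1% and 32.2% of all transcripts. Trim28 fell from 137, 207 and 178 reads to 76, 127 and 106 (log2 fold change -1.18 ± 0.14, edgeR adjusted p = 1.13e-09) and gained 34.5 ± 7.65 nt of tail (limma adjusted p = 0.00970). Cbx5, which encodes an HP1 protein, fell by 0.94 ± 0.32 on the log2 scale (edgeR adjusted p = 0.00917). The HP1 gene Cbx1 was also called lower, with 9, 13 and 10 reads in P/D and 0, 1 and 0 in RS. Atf7ip was not called. Cbx3 and Uhrf1, also of this machinery, had contigs but none at the floor. The most read Cbx3 transcript had 2, 2 and 4 reads in P/D and 3, 7 and 6 in RS.

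The number of fingers was then set against both measures, with the fits that used the floor of 30 reads. Of 22 transcripts from genes with 1 to 4 fingers, 1 was higher in RS and 7 were lower (median log2 fold change -0.47). For 5 to 9 fingers the counts were 11 and 9 of 36 (median 0.38), for 10 to 14 fingers 8 and 2 of 23 (0.19), and for 15 or more 7 and 1 of 18 (0.57). The 3 transcripts of Zfp474 and Zfp330, the 2 genes without a finger of this form, were all higher. Fingers were counted per gene, and some transcripts encode none of them, such as those of Zfp560 and Zfp787 named above. The shares over all transcripts in this fit were 32.2% and 25.1%, and the classes were not tested against each other. Across 102 transcripts the number of fingers had a Pearson r of 0.197 with the log2 fold change and of 0.0372 with the tail difference. The median tail differences were 40.6, 47.4, 40.5 and 40.1 nt in the same 4 classes. In 31 transcripts of the 22 other genes with 3 or more fingers the median tail difference was 34.8 nt, 13 were longer, 7 were higher and 8 lower.

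Of 19 genes with 2 or more transcripts at the floor, all transcripts of 18 had a fitted log2 fold change of the same sign, although many of these were uncalled and near 0. The share over all genes is not given, so this count is a description only. All transcripts of 16 genes had a longer mean tail in RS, as 93 of the 103 transcripts did. Zfp672 was the exception in accumulation, with 4 transcripts from -1.20 to 0.52. Zfp318 had unlike tails: its most read transcript gained 78.0 nt, while the other had P/D tails of 152.9, 150.3 and 152.2 nt and a difference of 1.42 ± 17.4 nt. With the reads of each gene pooled, chosen after seeing the data, 35 of 59 member genes had longer tails and 1 shorter (55.0% and 2.08% of 5250 genes), and 19 of 50 were higher and 13 lower (34.9% and 31.3% of 4823). The gene with shorter tails was Zfp644, at 150.0 nt in P/D and 119.6 nt in RS (limma adjusted p = 0.0368), although its processed transcript alone differed by 4.92 ± 12.8 nt. That transcript gave 2, 2 and 1 of the gene's 6, 6 and 3 reads in P/D, and 21, 22 and 29 of its 22, 30 and 30 reads in RS. The mix of transcripts thus differed between the cell types, and its part in the pooled difference was not tested.

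These genes lie in families along the genome. Chromosome 7 held 19 of the 77 genes (24.7%), against 7.45% of all genes with 30 reads, chromosome 17 held 10 (13.0% against 5.20%), and the X chromosome held 0. In 6 places at least 2 of them lay within 500 kb of each other, 20 genes in all. On chromosome 7, Zfp607b, Zfp626, Zfp607a and Zfp974 follow each other. With reads pooled per gene, Zfp607b, Zfp607a and Zfp974 were higher in RS, by 1.03, 1.00 and 3.15 on the log2 scale (edgeR adjusted p = 0.00962, 0.00692 and 6.50e-11), and Zfp626 could not be tested there. On chromosome 4, the neighbours Zfp992, Zfp993 and Zfp991 all had longer tails (25.9, 68.0 and 33.2 nt), and none was called for accumulation. The block left Zfp992 uncalled (limma adjusted p = 0.0313 without and 0.0664 with it). Neighbours did not always move alike. In another run on chromosome 7, pooled Zfp771 was lower (-2.10) and Zfp646 higher (0.63), with edgeR adjusted p = 2.19e-05 and 0.0140. On chromosome 17, the tails of neighbours Zfp51 and Zfp944 were uncalled (limma adjusted p = 0.628 and 0.635). Over all pooled genes 34.9% were higher, 31.3% lower and 55.0% had longer tails. Neighbours of like sequence may have had their reads divided unevenly by the alignment, but their sequences were not compared here. In all, 120 member reads were listed on more than 1 contig, which can also be transcripts of the same gene.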

How the data were processed

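Tail lengths per read and counts per transcript were deposited by the authors, who aligned nanopore direct-RNA reads with minimap2 (version 2.20-r1061 per the labels), estimated tails from the raw current with Nanopolish and kept reads that passed its tail quality filter. The deposited counts are whole reads per annotated contig, and equalled the number of tails listed for every contig. Mean tails per sample were tested with limma 3.58.1 in transcripts with 10 reads in 2 samples of either cell type, and counts with edgeR 4.0.16 (quasi-likelihood, TMM), with Benjamini-Hochberg adjustment over all transcripts of a fit and a threshold of 0.05. Both fits were also run with a floor of 30 reads over the 6 samples. The 2 methods were tried on simulated data. For limma these covered transcripts that passed the filter of 10 reads and had a mean in all 6 samples. For edgeR they covered transcripts that passed its filter on low counts. Sparser transcripts, admitted only by the floor of 30 reads, were not simulated. Counts per transcript are small, which limits the precision of single values, and intervals were not computed from reads. Samples are pools of mice, so p-values measure the spread between 3 pools. Fingers were searched for in GENCODE coding sequences (GRCm38). Members and gene lists were chosen with earlier results of these data known. By rule, the text names the 8 highest and 8 lowest called changes in accumulation, the 8 largest called tail changes each way, the 8 transcripts with most reads, and genes on the role lists. Other named transcripts, among them those with short tails in RS, Zfp423, the smaller called changes and the gene neighbours, were chosen after their values were seen.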

Additional observations from a re-analysis of the deposited data

How the results depend on the processing

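No value below changed sign under the alternatives run. The 38 longer tails of 67 became 21 of 26 when 10 reads were required in 2 samples of both cell types. The share of all transcripts called under that stricter filter is not given, so this count does not set these genes apart. They became 27 by the methods' t-test with adjustment, and 35 to 40 with medians, log2 lengths, read weights or only tails of 10 to 300 nt. With each replicate left out in turn they were 31 to 40. Alternatives that change the read filter also change how many transcripts are tested, here and below. Their counts are therefore not shares of one total. The 0 shorter tails became 1 (Zfp706) without RS replicate 3, and the leave-one-out range is 0 to 1. The median difference of 38.3 nt became 51.7 nt with 10 reads in 2 samples of both cell types, and 35.5 to 47.4 nt with a replicate left out. The 19 higher and 14 lower transcripts became 30 and 19 with the floor of 30 reads, 26 and 21 with no filter, 15 and 12 with DESeq2 1.42.0, 17 and 14 with library totals, 7 and 3 with 10 counts in every sample, and 18 to 23 and 14 to 15 with a replicate left out. The median log2 fold change of 0.27 became 0.11 with no filter and 0.23 to 0.36 with a replicate left out. The gain of 35.0 points in tails of 120 to 210 nt became 23.3 points for 120 to 180 nt, 30.1 points with equal weight of transcripts, and 34.1 to 36.0 points with a replicate left out. Samples with the same replicate number did not deviate together in every pair (r of -0.0106, 0.0771 and 0.0157 for tails and 0.0282, 0.237 and 0.0687 for counts). With the replicate block 36 transcripts had longer tails, of which 34 were shared with the fit without it, 19 were higher, of which 18 were shared, and the same 14 were lower. Pooling per gene, leaving out reads on several contigs (37 longer) and asking for 5 or more reads behind each mean (31 longer) were chosen after seeing the data. Of single transcripts, 19 of 26 tail results and 22 of 27 accumulation results kept their call under every alternative. The cause of these differences was not tested. Few reads limit all of this: with 1 to 5 reads in a sample a mean tail is a rough value.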
